A study of Mus musculus with 24 samples.

Results

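Class 4 liver libraries were compared with class 2 liver libraries from wild-type mice, in 8 of the 24 RNA-seq libraries of a study of liver gene expression. The members were chosen by their titles: 4 wild-type libraries with the suffix 4 and numbers 1 to 4, against 4 wild-type libraries with the suffix 2 and the same numbers. All were labelled as liver of strain C3H/HeJ and as wild type, an inbred mouse strain without the transgene carried by the libraries abbreviated TGA. No label explains the suffix, so the groups are called class 4 and class 2 here; a reading as the DNA content of hepatocytes rests on the series title, which speaks of polyploid hepatocytes. Age and treatment are not given in the labels, nor is whether libraries of a group came from separate animals, so the p-values reflect library-to-library spread that may be technical. RNA came from an isolation kit for fixed and embedded tissue (FFPE), and the libraries were read together as single ends of 75 bases.

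Hepatocytes carry out most of the liver's metabolic work, including the urea cycle, amino acid breakdown and fatty acid synthesis, and secrete albumin and apolipoproteins into the blood. Many of them become polyploid after birth, when cytokinesis fails and a cell keeps more than a single diploid set of chromosomes. Their mitochondria carry a circular genome that encodes subunits of the respiratory chain and is transcribed as long precursors, while small nuclear and nucleolar RNAs guide the processing and modification of ribosomal, transfer and spliceosomal RNA.

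Values are log2(normalised count + 1), and a difference is class 4 minus class 2 on that scale. Of 35974 genes in the table, 4875 were tested, and no gene passed an adjusted p of 0.05 in either direction by limma with Benjamini-Hochberg adjustment (0% of genes tested). At an unadjusted p under 0.05, 83 genes had higher values in class 4 (1.7%) and 143 had lower values (2.93%), together 4.64% of the genes tested. The groups did not overlap for 19 genes with higher values in class 4 (0.39%) and for 28 with lower values (0.574%). Over all genes tested, 48.2% had higher and 51.8% lower values in class 4, and the median difference was -0.05. Because no gene passed the test, the differences below are descriptions of these 8 libraries, read against those background shares.

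Detection differed more between libraries of a class than between the classes. Genes above 0 numbered 14469, 4490, 2145 and 2332 in class 4 libraries 1 to 4, against 15147, 2071, 2634 and 7570 in class 2 libraries 1 to 4. Both number 1 libraries stood apart, with several times the genes of most others. The means were 5859 ± 5838 in class 4 and 6856 ± 6055 in class 2 (SD, n = 4 each), a difference of -996.5 with an exact two-sided permutation p of 0.743. The smallest p that 4 against 4 can give is 0.0286.

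Zeros were frequent on both sides. Of the genes tested, 5.11%, 56.5%, 72.6% and 70.5% were at 0 in class 4 libraries 1 to 4, against 1.54%, 69.5%, 64.9% and 44.3% in class 2 libraries 1 to 4. Over all values, 51.2% were 0 in class 4 and 45.1% in class 2, and 66.5% and 59.6% without the number 1 libraries. More zeros fell in class 4 for 1905 genes and in class 2 for 1097, and the number was equal for 1873; 349 genes were above 0 in all 8 libraries. For 1965 genes 3 of the 4 class 4 libraries were at 0, and in 1859 of these the library above 0 was number 1; in class 2 the same held for 1293 of 1322 genes. Asf1b, which encodes a histone chaperone and was singled out after its values were seen, was the 1 gene at 0 in all class 4 libraries and above 0 in all class 2 libraries; the converse was seen for 0 genes.

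The most frequent level above 0 also differed between libraries. The most frequent value above 0 was 0.083, 1.320, 3.899 and 3.817 in class 4 libraries 1 to 4, against 0.083, 3.810, 2.905 and 0.600 in class 2 libraries 1 to 4. These are not the lowest levels of a library: values below them occurred too. Among the 332 class 4 values of the 83 genes with higher values at an unadjusted p under 0.05, 72 lay above 0 and up to that library's most frequent value, 49 of them at it, and 57 were 0, while 206 of the 332 class 2 values were 0. Among the 143 genes with lower values, 382 of 572 class 4 values and 87 of 572 class 2 values were 0.

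**Figure D1:**
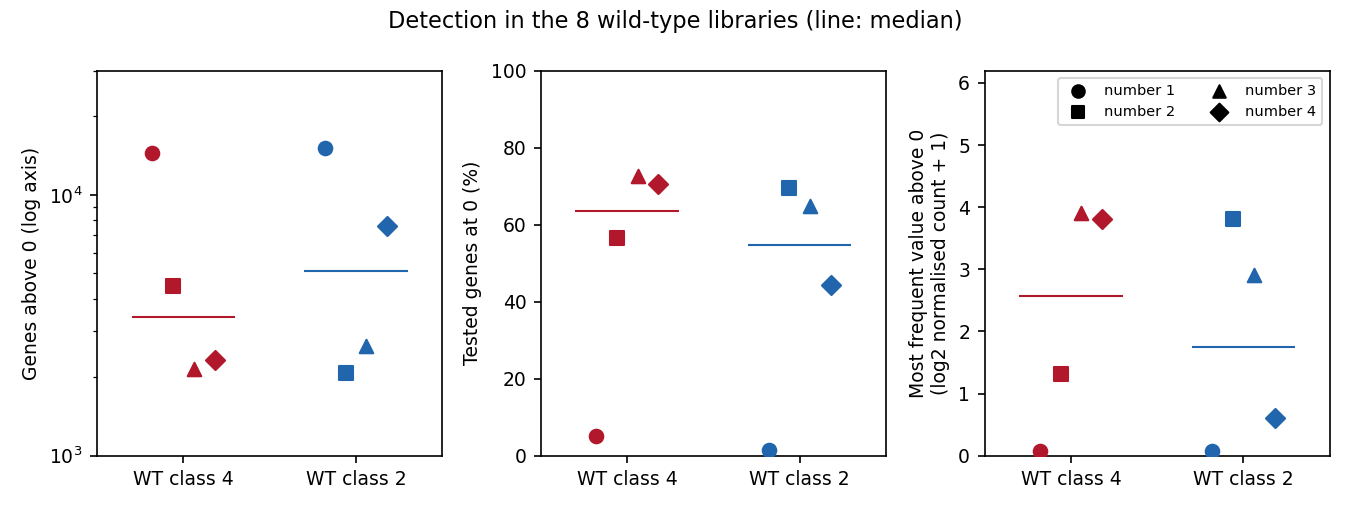
Genes above 0 (log axis), percent of the 4875 tested genes at 0, and the most frequent value above 0 (log2 scale) in the wild-type libraries, class 4 left and class 2 right, with a marker shape per library number and a line at the median. Both number 1 libraries lie apart in genes above 0 and in the percent at 0, with 14469 genes above 0 in class 4 and 15147 in class 2.

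The number 1 libraries also differed from the rest in hepatocyte transcripts. Apoa1, the major apolipoprotein of HDL particles, had 13.42 in class 4 number 1 and 12.73 in class 2 number 1, against 7.87 to 9.47 in the other 6 libraries. Alb, encoding serum albumin, had 9.53 in class 4 number 1 and 9.20 in class 2 number 1, against 0 to 8.81 in the others. Across all 28 library pairs, the correlation over genes was highest for the number 1 pair at 0.69 (median 0.335), a description since both share a high detection. Apoa1 and Alb, chosen after their values were seen, differed between the classes by -0.04 and -0.27 (unadjusted p = 0.966 and 0.874 by limma), less than the spread between libraries.

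The label of liver was checked against markers. Of 42 hepatocyte identity genes, 9 to 39 were above 0 in class 4 libraries and 13 to 42 in class 2 libraries, with summed normalised counts of 1400 to 26100 and 2500 to 15500; Apoa1 was above 0 in all 8 libraries, Hnf4a in 1 library of each class and Ttr in 2 class 4 and 1 class 2 libraries. Endothelial genes, 30 in the list, summed to 13.4 to 168 in class 4 and 4.89 to 131 in class 2. The macrophage marker Adgre1, the neutrophil marker Ly6g and the globin genes Hba-a1 and Hbb-bs were at 0 in all 8 libraries. Other markers were not. The neutrophil gene S100a8 was above 0 in 2 class 2 libraries and S100a9 in 1, at up to 3.78 and 5.45. Clec4f and Alas2 were above 0 in 1 class 4 library, and Cd68 and Csf1r in 1 class 2 library, at up to 1.19. Endothelial Stab2 was above 0 in 3 class 4 and 2 class 2 libraries. The fibroblast gene Col1a1 was above 0 in 1 of each class, at up to 5.64. Summed macrophage genes reached at most 35.8 in class 4 and 25.2 in class 2, neutrophil genes 67.1 and 42.7, lymphocyte genes 19 and 99.5, stellate and fibroblast genes 83.1 and 10.2, and cholangiocyte genes 55.5 and 52.4. In such bulk RNA, fewer cells of a type and less RNA per cell cannot be told apart. Anln, whose product anillin acts in cytokinesis, was at 0 in 4 of 4 class 4 libraries and above 0 in 2 of 4 class 2 libraries, at 0.06 and 0.45, and was not tested.

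Transcripts of the mitochondrial genome had the largest median difference of the 35 gene lists with at least 5 genes tested. All 7 tested members had higher values in class 4, 5 of them at an unadjusted p under 0.05 (1.7% of all genes tested) and 5 with groups that did not overlap (0.39%). The median difference was 3.88, against -0.05 over all genes tested, and 4.66 without the number 1 pair. No member passed the adjusted threshold. The members are cut from shared precursors and are not independent.

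Among the subunits of complex I, the NADH dehydrogenase, ND4 had 8.52, 9.26, 11.73 and 9.12 in class 4 libraries 1 to 4, against 7.37, 0, 7.56 and 1.29 in class 2 libraries 1 to 4. All class 4 values lay above all class 2 values, and the difference was 5.60 ± 1.90 (SE; unadjusted p = 0.00493, adjusted p = 0.924 by limma). ND2 had 9.51, 9.28, 11.05 and 9.69 in class 4, against 8.20, 4.97, 0 and 6.41 in class 2, again without overlap, and differed by 4.99 ± 1.62 (SE; unadjusted p = 0.00352, adjusted p = 0.924 by limma). ND1 had 9.50, 9.47, 11.10 and 9.33 in class 4, against 7.95, 7.05, 4.99 and 6.73 in class 2. It had no zero in any of the 8 libraries, and its difference of 3.17 ± 1.43 (SE; unadjusted p = 0.0311 by limma) rests on no value of 0.

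ND6 is the 1 member of this list encoded on the opposite strand, and ND5 lies beside it. ND6 had 9.91, 8.80, 13.27 and 9.53 in class 4, against 8.37, 0, 9.61 and 8.02 in class 2, a difference of 3.88 with overlapping groups (unadjusted p = 0.0191 by limma). ND5 had 10.06, 10.82, 13.71 and 9.66 in class 4, against 9.59, 8.06, 10.31 and 8.54 in class 2, a difference of 1.94 (unadjusted p = 0.104 by limma). Class 4 library 3 was the highest of the 8 for both. The genes overlap by 14 bases in GRCm38, and since it is not stated that counting used strand, their reads cannot be told apart there.

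COX1, the catalytic subunit of cytochrome c oxidase, had 9.55, 9.45, 11.15 and 9.44 in class 4, against 7.70, 0, 7.31 and 6.84 in class 2, a difference of 4.43 without overlap (unadjusted p = 0.0162 by limma). CYTB, the cytochrome b subunit of complex III, was the most even of the 7 in class 4 (SD 0.20), at 9.69, 9.44, 9.53 and 9.89 in class 4 and 8.25, 6.32, 6.78 and 8.45 in class 2. It differed by 2.18 without overlap (unadjusted p = 0.117 by limma). ATP6, ATP8, COX2, COX3 and ND4L were listed at 0 in all 8 libraries, and ND3 was above 0 in 1 class 4 library, at 4.14. Nuclear copies of mitochondrial sequence exist, and how reads shared with them were counted is not given in the sources used here.

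**Figure D2:**
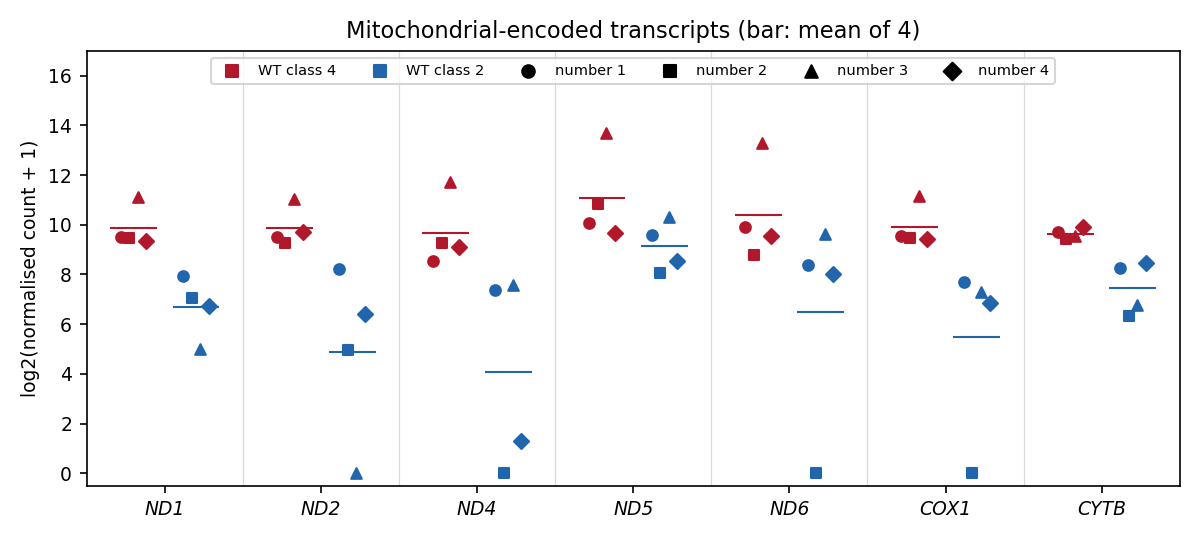
The 7 tested mitochondrial-encoded transcripts as log2(normalised count + 1) in each library, class 4 left and class 2 right of each pair, with a marker shape per library number and a bar at the mean of 4. Values are higher in class 4 for every gene on average, and the groups overlap for ND5 and ND6.

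Summed over the 13 members in the table, normalised counts were 5410, 5610, 34000 and 5210 in class 4 libraries 1 to 4, against 2320, 507, 2540 and 1280 in class 2 libraries 1 to 4. Class 4 library 3 carried the largest sum, and all 4 class 4 sums lay above all class 2 sums. The 95 nuclear-encoded genes of oxidative phosphorylation did not share the pattern to that size: of 13 tested, 8 had higher and 5 lower values in class 4, 0 at an unadjusted p under 0.05, with a median difference of 0.43. Their summed counts ranged over 235 to 245 in class 4 and 51.3 to 231 in class 2, so these sums did not overlap either. Of the values of those tested, 61.5% in class 4 and 67.3% in class 2 were 0. The difference between these lists was not tested.

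Small structural RNAs had lower values in class 4. All 7 tested members of the group holding the vault, 7SK, RNase P, RNase MRP, signal recognition particle and telomerase RNAs had lower values in class 4. Of these, 3 were lower at an unadjusted p under 0.05 (2.93% of all genes tested), and the median difference was -0.94. Without the number 1 pair, 6 had lower values and 1 a higher value, with a median of -1.01. Vaultrc5, an RNA of the vault particle, had 8.35, 9.98, 8.02 and 7.07 in class 4, against 9.91, 13.71, 10.61 and 10.35 in class 2. Class 4 library 2 lay above class 2 library 1, so the groups overlapped, and the difference was -2.79 ± 1.11 (SE; unadjusted p = 0.0154, adjusted p = 0.999 by limma). Rpph1, the RNA of RNase P, which trims transfer RNA, had 11.81, 12.56, 11.26 and 11.35 in class 4, against 12.56, 13.27, 13.42 and 12.73 in class 2. Its difference of -1.25 ± 0.54 (SE; unadjusted p = 0.0256 by limma) involved no value of 0, and the groups met at 12.56.

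Rn7sk, the 7SK RNA that holds the elongation factor P-TEFb inactive, had 8.96, 4.24, 0 and 0 in class 4, against 9.66, 7.10, 7.01 and 5.50 in class 2, a difference of -4.02 ± 1.59 (SE; unadjusted p = 0.015 by limma). It was highest in library 1 of each class. Without the number 1 pair the groups did not overlap and the difference was -5.12. Rmrp, the RNA of RNase MRP, differed by -0.94 (unadjusted p = 0.295 by limma). The signal recognition particle RNAs Rn7s1 and Rn7s2, near-identical copies whose reads may be split, differed by -0.07 and -0.63, and the telomerase RNA Terc by -0.33. With values centred per library on 99 genes above 0 in all 24 libraries, Rn7s1 and Terc had differences of 0.38 and 0.12, the opposite sign.

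Small nucleolar and Cajal body RNAs guide chemical modification and cleavage of ribosomal and spliceosomal RNA. Of 15 tested members of 128 in the table, 14 had lower values in class 4 and 1 had a higher value, Snora73a at 0.37; 8 were lower at an unadjusted p under 0.05 (2.93% of all genes tested) and 1 did not overlap (0.574%). The median difference was -2.75 and, without the number 1 pair, -2.99; with no filter on low values, which adds members with low values, it was -0.67. Members above 0 numbered 21, 10, 4 and 4 in class 4 libraries 1 to 4, against 26, 14, 13 and 11 in class 2 libraries 1 to 4. Summed normalised counts ranged over 265 to 1860 in class 4 and 1540 to 5740 in class 2, so the ranges met.

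The 3 following sequences are of members shown in detail, without Snora73b. They are credited to GENCODE release M21 and matched by symbol, to show the kind of RNA these values stand for. Snora81 lies at chr16:23110756-23110933, Snora36b at chr1:185242907-185243038 and Snord118 at chr11:69073427-69073561 (GRCm38, plus strand); the deposited values were made on mm9. Capitals mark the ACA that stands 3 bases before the end of H/ACA guide RNAs, found in Snora36b at position 127, and the TGATGA and the last CTGA of the C/D box RNA Snord118, at positions 53 and 131. Read on the RNA strand, the ACA at that place was found in 18.3% of 1507 annotated snoRNA transcripts, TGATGA in 26.1% and CTGA in 79.5%. No capitals are given for Snora81, where ACA does not stand at that place.
Snora81: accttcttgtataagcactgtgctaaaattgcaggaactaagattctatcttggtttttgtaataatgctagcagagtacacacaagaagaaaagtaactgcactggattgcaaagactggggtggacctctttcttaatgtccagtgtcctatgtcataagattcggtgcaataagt
Snora36b: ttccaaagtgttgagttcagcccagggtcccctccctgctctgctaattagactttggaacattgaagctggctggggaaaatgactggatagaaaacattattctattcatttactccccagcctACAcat
Snord118: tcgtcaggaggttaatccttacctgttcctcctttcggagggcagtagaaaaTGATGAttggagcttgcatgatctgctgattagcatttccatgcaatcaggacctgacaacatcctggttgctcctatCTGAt

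Snora81, carried in an intron of the translation factor gene Eif4a2, had 3.94, 2.81, 0 and 0 in class 4, against 6.43, 7.91, 6.24 and 5.92 in class 2. The groups did not overlap, and the difference was -4.94 ± 1.73 (SE; unadjusted p = 0.00644, adjusted p = 0.999 by limma). Snora73b, from the locus of Snhg3 and Rcc1, had 1.32, 0, 0 and 0 in class 4, against 5.10, 8.0, 4.16 and 0.94 in class 2, a difference of -4.22 (unadjusted p = 0.0103 by limma). Snora73a, from the same locus, did not share this: it differed by 0.37 (unadjusted p = 0.835 by limma). Of its values, 1 in class 4 and 2 in class 2 were 0. How reads that both could give were counted is not stated. Snord118, the U8 RNA needed to process the large ribosomal RNA, had 6.13, 0, 0 and 0 in class 4, against 6.79, 6.52, 7.12 and 1.97 in class 2, a difference of -4.07 (unadjusted p = 0.022 by limma). Snora36b, inside Rab3gap2, had 0.51, 0, 0 and 0 in class 4, against 0.28, 4.97, 3.86 and 0 in class 2, a difference of -2.15 (unadjusted p = 0.0161 by limma). For Snora81, Snora73b, Snord118 and Snora36b, class 4 libraries 3 and 4 were at 0. Leaving out the number 1 pair gave -5.75 for Snora81, -4.37 for Snora73b, -5.20 for Snord118 and -2.94 for Snora36b.

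Of the 15 tested small RNAs, 12 lie inside a host gene on the same strand in GENCODE M21 and 3 do not. Of the hosts, 1 was tested, the ribosomal protein gene Rpsa, which differed by -0.02 beside -0.67 for its Snora62. Reads of a small RNA and of the host's intron cannot be told apart, since the counting is not given in the sources used here. Cytosolic ribosomal protein genes had a median difference of -0.23 over 22 tested, with 8 higher and 14 lower values in class 4; with a filter on the 8 libraries alone, which leaves fewer genes, it was 1.90, the opposite sign.

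**Figure D3:**
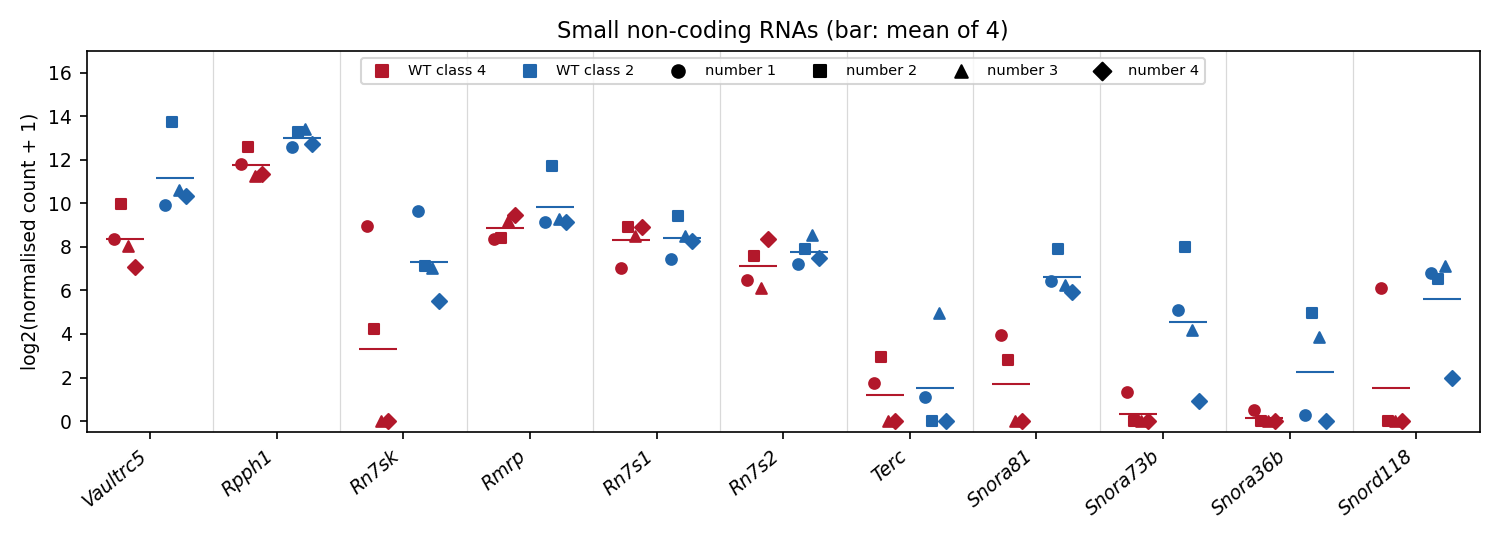
Vault, RNase P, 7SK, RNase MRP, signal recognition particle, telomerase and 4 small nucleolar RNAs as log2(normalised count + 1) in each library, class 4 left and class 2 right of each pair, with a marker shape per library number and a bar at the mean of 4. The mean is lower in class 4 for each of the 11, by between -4.94 and -0.07, and most class 4 values of the 4 nucleolar RNAs are 0.

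The smallest p of the comparison belonged to Mir6236, a microRNA gene symbol at the top of the value range. It had 16.41, 13.27, 14.32 and 14.32 in class 4, against 16.41, 15.54, 16.41 and 16.41 in class 2, a difference of -1.61 ± 0.37 (SE; unadjusted p = 6.86e-05, adjusted p = 0.334 by limma). Library 1 of each class sat at 16.41, which is the highest value of the table, shared by 20 of 24 libraries as quantile normalisation leaves it, so no value can exceed it. Every class 2 library reached that value, but class 4 libraries 2, 3 and 4 did not. Their highest values were 15.45, for Rorb, and 15.54 and 15.54, for Cyb5r3. The top of the scale thus differed between the groups compared, and its part in the Mir6236 difference was not tested. The SE and p pool the spread of all 6 groups. For Mir6236 the SD was 1.32, 0.44 and 1.05 in wild-type class 4, 2 and 8. In transgenic class 2, 4 and 8 it was 0.51, 0.00 and 0.44, and every transgenic class 4 library sat at 16.41. What those libraries at the top of the scale add to the p, also without the number 1 pair, was not tested. Without the number 1 pair the difference was -2.15 and Mir6236 was the 1 gene that passed the threshold (adjusted p = 0.00354 by limma; 0.0205% of genes tested). When the 6 libraries of numbers 2 to 4 were fitted alone, 0 of 4875 genes passed by limma (smallest adjusted p 0.299). At an unadjusted p under 0.05 that fit had 49 genes higher and 71 lower in class 4. The main fit had 83 (1.7%) and 143 (2.93%). The mature sequence of RefSeq, 19 bases at chr9:110281353-110281371 on the plus strand of GRCm38.p6, is shown with the seed, bases 2 to 8, in capitals. Libraries of total RNA read to 75 bases do not measure a mature microRNA as such.
mmu-miR-6236: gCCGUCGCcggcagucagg

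LOC101056014, named after its values were seen as the highest gene of class 2 library 2, had 15.54, 12.73, 12.98 and 12.73 in class 4, against 15.54, 16.41, 14.16 and 14.16 in class 2, a difference of -1.57 (unadjusted p = 0.0153 by limma). Like Mir6236 it was equal in the number 1 libraries and lower in the other class 4 libraries than in the other class 2 libraries.

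Zeros weigh on the genes of hepatocyte metabolism, and they were also common among genes used by every cell, of which 8 of 18 were tested. Zeros made up 53.1% of their class 4 values and 46.9% of their class 2 values, and 8, 3, 0 and 4 of them were above 0 in class 4 libraries 1 to 4, against 8, 1, 4 and 4 in class 2 libraries 1 to 4. Hprt, Pgk1, Tbp and Tuba1b were listed at 0 in all 8 libraries. A value of 0 below therefore says only that the gene is listed at 0.

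Metabolic genes showed both lower and higher values in class 4. Of 5 tested urea cycle genes, 4 had lower and 1 had higher values in class 4, 2 of them lower at an unadjusted p under 0.05 (2.93% of all genes tested), with a median difference of -1.81, of -2.0 without the number 1 pair and of -4.79 with a filter on the 8 libraries alone, which leaves fewer genes; 70% of the class 4 values and 30% of the class 2 values were 0. Asl, argininosuccinate lyase, had 1.58, 0, 0 and 0 in class 4, against 4.71, 6.78, 6.38 and 3.22 in class 2. The groups did not overlap, and the difference was -4.88 ± 1.34 (SE; unadjusted p = 0.000668, adjusted p = 0.924 by limma). Cps1, which makes carbamoyl phosphate and starts the cycle, had 9.22, 0, 0 and 0 in class 4, against 8.60, 6.32, 6.09 and 7.36 in class 2, a difference of -4.79 ± 1.60 (SE; unadjusted p = 0.00449 by limma). The single class 4 library above 0 was number 1, the highest of the 8. With class 4 number 1 left out the difference was -7.10, and Cps1 passed the threshold (adjusted p = 0.0356 by limma); with both number 1 libraries left out it was -6.59 and did not (adjusted p = 0.138).

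Ass1, argininosuccinate synthase, had 6.76, 0, 6.46 and 0 in class 4, against 6.79, 0, 6.71 and 3.42 in class 2, a difference of -0.92 (unadjusted p = 0.622 by limma). Arg1, arginase, had 5.33, 0, 0 and 0 in class 4, against 6.57, 0, 6.0 and 0 in class 2, a difference of -1.81 (unadjusted p = 0.293 by limma). Both overlapped between the classes. Asl, without the number 1 pair, differed by -5.46 (adjusted p = 0.268 by limma).

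Among 35 tested genes of amino acid and folate breakdown, 25 had lower and 10 higher values in class 4, with a median of -0.53. Ftcd, an enzyme of histidine breakdown, had 6.69, 0, 0 and 0 in class 4, against 7.03, 7.10, 5.87 and 4.01 in class 2, a difference of -4.33 ± 1.52 (SE; unadjusted p = 0.00668 by limma). Uroc1, another enzyme of that route, had 6.71, 3.71, 0 and 6.02 in class 4, against 7.43, 6.43, 6.76 and 7.02 in class 2, and differed by -2.80 (unadjusted p = 0.101 by limma). Cbs, cystathionine beta-synthase, differed by -3.07 (unadjusted p = 0.0464 by limma). The differences without the number 1 pair were -5.66 for Ftcd, -3.49 for Uroc1 and -3.39 for Cbs (adjusted p = 0.268, 0.837 and 0.766 by limma).

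Fatty acid synthesis was represented by 20 tested genes, 16 with lower and 4 with higher values in class 4, with a median of -0.67. Thrsp, a lipogenic regulator, had 6.35, 0, 0 and 0 in class 4, against 7.29, 7.10, 6.40 and 0.91 in class 2, a difference of -3.84 (unadjusted p = 0.0319 by limma). Acly, which makes acetyl-CoA, was at 0 in all class 4 libraries, against 2.18, 6.38, 0 and 0.92 in class 2, and Srebf1, the regulator of the route, differed by -2.38 (unadjusted p = 0.14 by limma). Fads1, a desaturase, ran the other way at 6.05, 6.16, 7.02 and 0 in class 4, against 5.34, 0, 0 and 0.87 in class 2, a difference of 3.25 (unadjusted p = 0.0574 by limma). The 21 tested genes of fatty acid oxidation had a median of 0.06, with 12 higher and 9 lower values; Slc27a2, a fatty acid transporter, differed by -3.37 (unadjusted p = 0.0302 by limma), and Ppara, the receptor that drives oxidation genes, had 4.93, 5.05, 0.98 and 4.60 in class 4, against 3.65, 0, 0 and 0.72 in class 2. With the number 1 pair left out, the differences were -4.80 for Thrsp, -4.41 for Slc27a2, 4.11 for Fads1 and 3.30 for Ppara, with no adjusted p under the threshold.

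**Figure D4:**
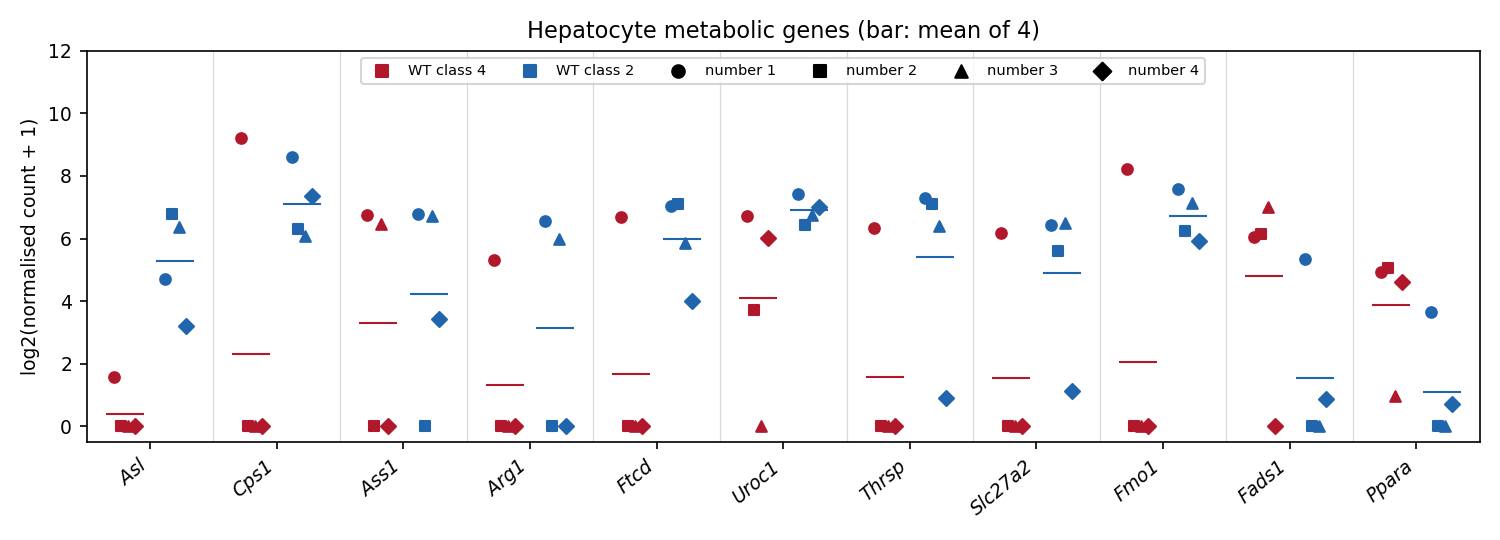
Urea cycle, amino acid, fatty acid and drug metabolism genes as log2(normalised count + 1) in each library, class 4 left and class 2 right of each pair, with a marker shape per library number and a bar at the mean of 4. For Asl, Cps1, Ftcd, Thrsp, Slc27a2 and Fmo1 the 1 class 4 value above 0 is library 1, and all class 2 values are above 0.

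Other genes of hepatocytes varied in the same way. Fmo1, a flavin monooxygenase of drug metabolism, had 8.22, 0, 0 and 0 in class 4, against 7.58, 6.25, 7.13 and 5.92 in class 2, a difference of -4.67 ± 1.55 (SE; unadjusted p = 0.00425, adjusted p = 0.924 by limma). With class 4 number 1 left out the difference was -6.72, past the threshold (adjusted p = 0.0356 by limma); with both number 1 libraries left out it was -6.43 and Fmo1 did not pass (adjusted p = 0.138). Apof, encoding an apolipoprotein, had 0.59, 0, 0 and 0 in class 4, against 1.0, 6.43, 2.91 and 2.16 in class 2. Its groups did not overlap, and it differed by -2.98 (unadjusted p = 0.0105 by limma), and by -3.83 without the number 1 pair. The 34 tested genes of periportal hepatocytes had a median of -0.72 with 23 lower and 11 higher values, and the 20 of pericentral hepatocytes -0.43 with 13 lower and 7 higher. The 38 tested hepatocyte identity genes had a median of -0.21, with 22 lower and 16 higher values, and the 20 of endoplasmic reticulum chaperones -0.32, with 13 lower and 7 higher.

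These medians depend on the scale. Centring each library on the 99 genes above 0 in all libraries moved the median of all genes tested to 0.40, in place of -0.05, and the calls at an unadjusted p under 0.05 to 206 higher (4.23%) and 65 lower (1.33%). The medians of hepatocyte identity, pericentral, ribosomal protein and chaperone genes were then 0.24, 0.02, 0.22 and 0.13, the opposite sign, and lay below the median of all genes on either scale. The mitochondrial median was 4.33, the nucleolar -2.30, the vault and 7SK group -0.49 and the urea cycle -1.36 with centring, without a change of sign. Without the number 1 pair, on the first scale, the medians were -0.35 for amino acid and folate breakdown, -0.40 for fatty acid synthesis, -0.57 for periportal, -0.25 for pericentral, -0.14 for hepatocyte identity and -0.16 for chaperone genes, again all lower, and 0.57 for nuclear oxidative phosphorylation.

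**Figure D5:**
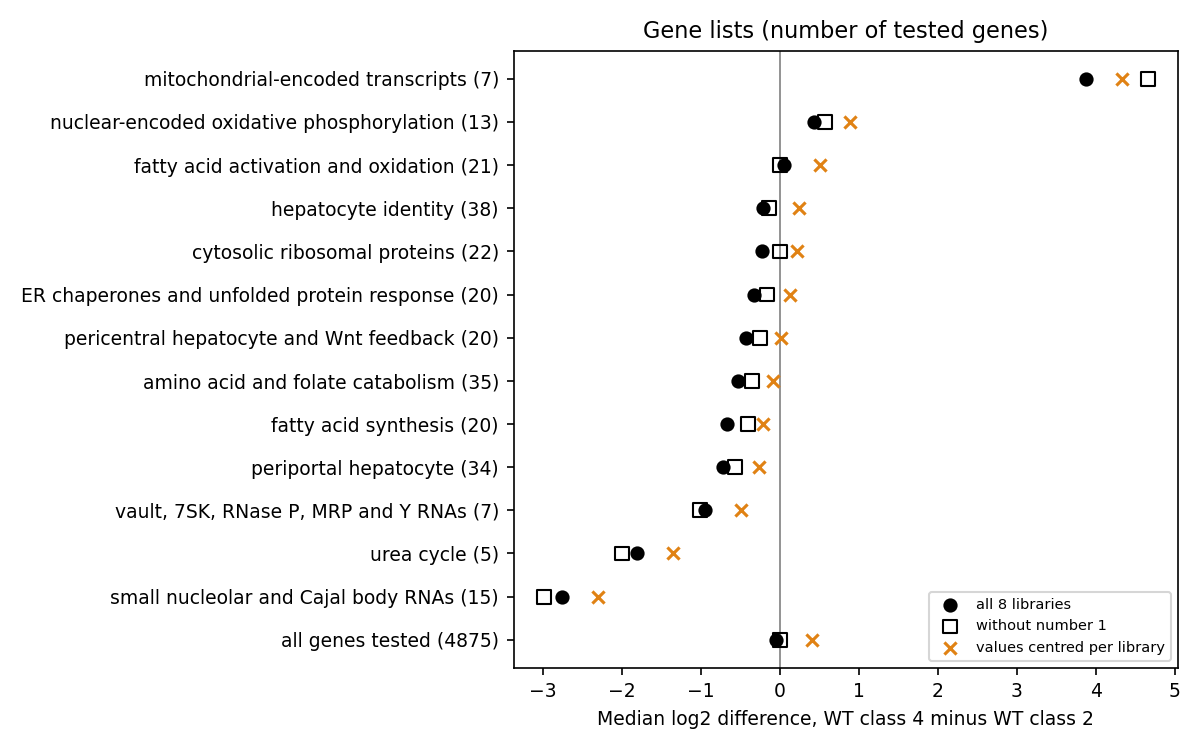
Median log2 difference, class 4 minus class 2, of the 13 gene lists described and of all 4875 genes tested, with all 8 libraries, without the number 1 pair and with values centred per library. Mitochondrial-encoded transcripts lie farthest right at 3.88 and nucleolar RNAs farthest left at -2.75 with all 8 libraries.

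The other 22 lists with at least 5 genes tested had medians between -0.88, for immediate early genes, and 0.61, for serpin A protease inhibitors, and none held a gene past the threshold; 11 lists had fewer than 5 tested. Gadd45g, a stress-induced gene of growth arrest, had 6.58, 6.65, 0 and 0 in class 4, against 7.34, 6.98, 7.75 and 7.12 in class 2, without overlap, and differed by -3.99 (unadjusted p = 0.02 by limma). Tsc1, a subunit of the complex that restrains mTORC1, had 3.80, 5.04, 8.09 and 0 in class 4, against 0.46, 0, 0 and 0 in class 2, a difference of 4.12 ± 1.33 (SE; unadjusted p = 0.00326, adjusted p = 0.924 by limma). In class 4 it was high in 3 libraries and at 0 in library 4.

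Some genes without overlap were above 0 in most libraries. Hnrnpu, a nuclear RNA-binding protein, had 9.62, 9.70, 8.88 and 9.20 in class 4, against 9.74, 11.17, 11.17 and 10.50 in class 2, a difference of -1.29 (unadjusted p = 0.0726 by limma). Fbxw8, a subunit of a ubiquitin ligase, had 5.95, 6.59, 6.04 and 7.53 in class 4, against 2.51, 0, 5.95 and 0.87 in class 2, a difference of 4.20 (unadjusted p = 0.0177 by limma). Its groups nearly met, as the lowest class 4 and the highest class 2 value both round to 5.95. Dsg2, a desmosomal cadherin, had 6.68, 6.99, 7.33 and 7.07 in class 4, against 6.35, 5.86, 6.27 and 0.99 in class 2, a difference of 2.15 (unadjusted p = 0.15 by limma). Hnrnpu and Dsg2 were above 0 in all 8 libraries, with the number 1 values of the classes close together in both.

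Several of the genes with the smallest p had lower values in class 4 through zeros. Prkd3, a protein kinase, had 0.08, 0, 0 and 0 in class 4, against 1.17, 3.41, 6.27 and 7.38 in class 2, a difference of -4.54 ± 1.27 (SE; unadjusted p = 0.00084, adjusted p = 0.924 by limma). Sptbn1, a spectrin, had 0.60, 0, 0 and 2.39 in class 4, against 6.05, 4.93, 5.67 and 6.05 in class 2, a difference of -4.93 (unadjusted p = 0.00265 by limma). Supt5, a transcription elongation factor, had 2.25, 0, 0 and 0 in class 4, against 7.30, 5.60, 6.78 and 3.68 in class 2, a difference of -5.28 (unadjusted p = 0.00406 by limma). These 3 did not overlap between the classes. Golga4, a Golgi tether, differed by -5.16 and Wwc2 by -4.27, with all class 4 libraries but number 1 at 0. Without the number 1 pair the differences were -5.69 for Prkd3, -4.76 for Sptbn1, -5.36 for Supt5, -6.82 for Golga4 and -5.71 for Wwc2, with no adjusted p under the threshold.

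Genes with higher values in class 4 and a small p included some with values at the most frequent level of a library. Scn2a, a neuronal sodium channel, had 0.99, 1.32, 3.90 and 3.82 in class 4, against 0.13, 0, 0 and 0 in class 2, a difference of 2.47 ± 0.72 (SE; unadjusted p = 0.00119, adjusted p = 0.924 by limma). Its values in class 4 libraries 2, 3 and 4 equal the most frequent values of those libraries. LOC108168753 had 0, 6.32, 3.90 and 3.82 in class 4, against 0.35, 0, 0 and 0 in class 2, a difference of 3.42 (unadjusted p = 0.00115 by limma). Its 3.90 and 3.82 equal the most frequent values of class 4 libraries 3 and 4. Galnt13, a glycosyltransferase, had 0, 4.65, 3.84 and 2.97 in class 4, against 0.13, 0, 0 and 0 in class 2, a difference of 2.83 (unadjusted p = 0.000755 by limma). LOC108168753 and Galnt13 passed the threshold with class 4 number 1 left out, at 4.59 and 3.79 (adjusted p = 0.0382 and 0.0356 by limma). With both number 1 libraries left out, LOC108168753 at 4.68 and Galnt13 at 3.82 did not pass (adjusted p = 0.138 for each). Trim29, at 0.17, 6.88, 7.36 and 3.82 in class 4 and 0.20, 0, 0 and 0 in class 2, differed by 4.50 (unadjusted p = 0.00204 by limma). The 3.82 of Trim29 equals the most frequent value of class 4 library 4.

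Leaving out the number 1 pair left 3 libraries against 3, with 2071 to 7570 genes above 0. At an unadjusted p under 0.05, 140 genes then had higher (2.87%) and 177 lower values (3.63%) in class 4, and the groups did not overlap for 106 (2.17%) and 117 genes (2.4%). Leaving out class 4 number 1 alone gave 5 of the 4875 genes tested past the threshold: Cps1, Fmo1 and Mir6236 lower, Galnt13 and LOC108168753 higher. A fit of the 8 libraries alone called Mir6236 and LOC101056014, both lower. That fit gave each gene the spread common to genes of its level. Its calls therefore leave out how far a gene's own libraries differed.

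The same classes were also compared in transgenic libraries, in the same fit. There 41 genes fell in class 4 (0.841% of genes tested) and 0 rose by limma, beside 604 lower (12.4%) and 118 higher (2.42%), together 14.8%, at an unadjusted p under 0.05. The difference of the class effect between genotypes, wild type minus transgenic, passed the threshold for 0 genes by limma, with 232 genes higher (4.76%) and 77 lower (1.58%), together 6.34%, at an unadjusted p under 0.05 and a smallest adjusted p of 0.716; a call in 1 genotype alone is therefore not shown to differ between them. Without the wild-type number 1 pair that test called Mir6236, lower. The largest such difference among genes named by p was that of Tnks1bp1, 9.19 (unadjusted p = 0.000294 by limma), which had 5.80, 2.18, 6.84 and 6.91 in wild-type class 4, against 6.65, 0, 0 and 0.62 in wild-type class 2, and differed by -5.57 in transgenic libraries. F10, coagulation factor X, differed by 2.89 in wild type and -5.08 in transgenic libraries, and Lyar by 3.64 and -3.20. Usp33, a deubiquitinase, differed by -3.42 in wild type and by 3.68 in transgenic libraries.

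For the RNA groups described, the transgenic differences were as follows. The median difference of the mitochondrial-encoded transcripts was 3.88 in wild-type and 1.65 in transgenic libraries. ND1 differed by 3.17 in wild-type and by -0.28 in transgenic libraries (interaction adjusted p = 0.843 by limma). Mean mitochondrial levels were 10.05 ± 1.06 in wild-type class 4 and 6.31 ± 1.85 in wild-type class 2, and 8.31 ± 2.98 in transgenic class 4 and 6.87 ± 0.63 in transgenic class 2 (SD over libraries, n = 4 each). Vaultrc5 differed by -2.79 in wild type, which missed the threshold, and fell by 6.63 in transgenic class 4 (adjusted p = 0.00155 by limma); its interaction p was 0.0184 unadjusted and 0.767 adjusted. Rpph1 differed by -1.25 in wild type, also short of the threshold, and fell by 2.19 in transgenic class 4 (adjusted p = 0.0442 by limma; interaction adjusted p = 0.92). The nucleolar median was -2.75 in wild-type and -2.67 in transgenic libraries. The hepatocyte identity median was -0.21 in wild-type and -3.09 in transgenic libraries, and that difference of medians was not tested.

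Wild-type class 8 libraries were set beside the other classes. They share the class 4 libraries with the main comparison, so opposite signs of the class 4 difference and the class 8 difference are not independent. Class 8 against class 4 passed the threshold for 0 genes by limma, with 136 genes higher (2.79%) and 87 lower (1.78%), together 4.57%, at an unadjusted p under 0.05 and a smallest adjusted p of 0.749. Mean mitochondrial levels were 6.31 ± 1.85 in class 2, 10.05 ± 1.06 in class 4 and 6.75 ± 2.80 in class 8 (SD over libraries, n = 4 each), and the class 8 minus class 4 differences ran between -5.77 for COX1 (unadjusted p = 0.00214 by limma) and -2.23 for ND5. Mean nucleolar levels were 5.19 ± 1.75 in class 2, 2.56 ± 1.41 in class 4 and 4.55 ± 1.78 in class 8, and those of the vault and 7SK group 8.42 ± 0.65, 6.99 ± 0.81 and 8.31 ± 1.30. Asl averaged 5.27 in class 2, 0.40 in class 4 and 0.96 in class 8, Cps1 7.10, 2.31 and 3.11, and Tsc1 0.12, 4.23 and 0. Class 4 thus had the highest mean of the 3 classes for the mitochondrial transcripts and Tsc1 and the lowest for the small RNA groups, Asl and Cps1, with no adjusted p under the threshold.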

How the data were processed

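RNA-seq of mouse liver was analysed from 8 of 24 libraries: wild-type class 4 and wild-type class 2, 4 each, by title. Per the labels, total RNA from an FFPE kit was made into NuGen libraries and read as 75-base single ends. The submitters' processing notes name TopHat, edgeR and mm9 without roles or versions; how reads were counted, and on which strand, is not stated. The deposited values are on a natural log scale, read from the values as ln(quantile-normalised count + 1), which no label states. Depth is unknown. Values were divided by ln 2.

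Tested genes reached a value of 1 or more, as deposited, in 4 or more of 24 libraries; they were tested with limma 3.58.1 (trend) in R 4.3.3, with 6 group means over 24 libraries and Benjamini-Hochberg adjustment over 4875 genes (threshold 0.05); the script was checked on simulated data. Other values used pandas 2.3.3 and scipy 1.17.1 in Python 3.11.15. Symbols matched current tables for 96.2% of genes tested. Alternatives left out libraries, or changed filter, pseudocount, scaling, weights and blocking.

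The members and 46 gene lists were chosen with earlier results of these data known. Named genes were: those past the threshold; the 12 smallest p in each direction; the 8 largest differences in each direction without overlap among genes above 0 in at least 7 of 8 libraries; the 4 smallest p of each list, and all mitochondrial and vault group members; Anln and genes used by every cell; and the 4 smallest p in each direction of the interaction and without number 1. Several genes were named outside these rules. Asf1b, Apoa1, Alb and LOC101056014 were named after their values were seen. Snora73a was named beside Snora73b, Snora62 with its host Rpsa, and Rorb and Cyb5r3 as highest values. Cell type markers and untested mitochondrial members came from their lists.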

Additional observations from a re-analysis of the deposited data

Results flagged for a closer look

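A library was marked when it lay far from the other 3 of its class by Dixon's ratio (gap over range) against its critical value. This occurred in 45 of 120 gene groups and 8 of 26 list groups, and in 0 of 2 detection groups. For normally distributed values chance gives about 5 in 100 groups. That rate does not hold here, since many values are 0 and most genes were named by their p. Many of the ratios are exactly 1, which arises when 3 libraries share a value, mostly 0.

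In class 4 the ratio was 1 for Snora73b, Snora36b, Snord118, Asl, Cps1, Arg1, Ftcd, Cbs, Thrsp, Srebf1, Slc27a2, Apof, Fmo1, Creb3l3, Cyp27a1, Dnajb9, Prkd3, Supt5, Golga4, Wwc2 and Usp33, each with number 1 as the library above 0. In class 2 it was 1 for Hpx, Tsc1, Galnt13, LOC108168753, Scn2a, Trim29 and Lyar, again with number 1 above 0, and for Mir6236, where number 2 was below the shared highest value.

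Class 4 library 3 was highest for the mean of the mitochondrial-encoded transcripts (0.9859), ND1 (0.9058) and COX1 (0.9339). Class 4 number 1 was highest for the means of amino acid and folate genes (0.8659), periportal genes (0.8341) and ribosomal protein genes (0.9006), and for LOC101056014 (0.9120) and Apoa1 (0.8595). Fads1 (0.8614) had class 4 library 4 and Ppara (0.8879) class 4 library 3 as the lowest.

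In class 2, number 1 was highest for the means of nuclear oxidative phosphorylation (0.8294), fatty acid oxidation (0.8297), pericentral (0.8823) and hepatocyte identity genes (0.8542), and for Fads1 (0.8377), Tnks1bp1 (0.9063) and F10 (0.8632). Library 2 was lowest for ND6 (0.8339) and COX1 (0.8889) and highest for Rmrp (0.9451). Library 4 was lowest for Snord118 (0.8833), Thrsp (0.8592), Slc27a2 (0.8346) and Dsg2 (0.9085).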

How the results depend on the processing

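The count of 0 genes between the classes became 1 without number 1 (both libraries), 5 without class 4 number 1, 2 in a fit of the 8 libraries alone and 1 with the replicate number as a block without number 1, an alternative chosen after seeing the data, as was a fit of the 6 libraries of numbers 2 to 4, which gave 0. Leaving out libraries gave 0 to 5 genes. With the replicate block alone the count was 0; same-numbered libraries deviated together with correlations of 0.43, 0.01, 0.05 and 0.04 for numbers 1 to 4, so the numbers are not shown to pair the samples. The interaction and class 8 against class 4 counts, 0 in the report, were 0 to 1 over the left-out libraries; the interaction count was 1 with the block without number 1, and the class 8 count was 1 with that block and without libraries of over 7000 genes above 0, each time Mir6236. Without number 4 the difference in genes above 0 was 417.3, in place of -996.5, and the other leave-outs gave -2135 to -1103.

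Of 1451 gene differences over 60 genes, 31 in 5 genes changed sign: Rn7s1 (leave-outs -0.39 to 0.36; centring 0.38, weights 0.11, block or 6 libraries without number 1 0.04), Terc (leave-outs -1.43 to 1.20; centring 0.12), Ass1 (leave-outs -2.33 to 0.18), Alb (leave-outs -1.92 to 1.25; covariate 0.16, pseudocount 0.30, centring 0.18) and Apoa1 (leave-outs -1.31 to 0.99; covariate 0.16, centring 0.41). List medians moved by more than the spread between libraries 4 times. The mitochondrial median was 5.73, in place of 3.88, without libraries of over 7000 genes above 0; the nucleolar median was -0.67, in place of -2.75, with no filter, which adds members with low values. With the filter on the 8 libraries, which leaves fewer genes, the urea cycle median was -4.79, in place of -1.81, and the ribosomal protein median 1.90, in place of -0.23, the opposite sign. Depth is unknown, so what it limits cannot be given.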
